A study of Arabidopsis thaliana with 12 samples.

Results

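Rosette leaves of Arabidopsis thaliana plants carrying the lug-3 allele of LEUNIG were compared with wild-type rosette leaves on Affymetrix ATH1 arrays, which report 1 intensity per probe set. The comparison took 6 of the 12 arrays of the series, chosen by genotype and tissue as the labels give them: 3 of lug-3 leaves and 3 of wild-type leaves. The lug-3 samples carried the lug-3 allele in the Ler-0 background, and the wild-type samples were Ler-0. Both were mature leaves at growth stage 3.90, collected as a pool of 20 plants, from seed kept for 4 days at 4 °C in the dark and then grown in soil at 20 °C under constant light. Beside these stood 3 arrays of lug-3 flowers and 3 of wild-type flowers, which were used to estimate the spread between arrays and to ask where a change in leaves differed from that in flowers. The labels do not say that the 3 pools of a group were grown or extracted separately, so a p-value here measures only the spread between these samples. In pooled whole leaves, fewer cells of a type and less RNA per cell cannot be told apart.

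LEUNIG is a transcriptional corepressor of the Groucho/Tup1 type that has no DNA-binding domain of its own and is brought to its target genes through SEUSS and related adaptors and through DNA-binding factors. It is best known for keeping AGAMOUS off in the outer whorls of the flower, and it also acts in leaf shape and polarity. Growth of a leaf depends on division early on, then on expansion, in which the wall is loosened and extended while the cortical microtubules guide its cellulose. As a leaf ages it takes apart its plastids and proteins, partly by autophagy and in the vacuole, and exports the nitrogen and sugar. The questions asked here were which of these processes differed between lug-3 and wild-type leaves, and which of the differences were also found when the quality of the RNA was taken into account.

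No single-gene probe set here is named LEUNIG, LEUNIG_HOMOLOG or SEUSS-LIKE, so the targeted transcript was not analysed here and did not check the labels. Of the leaf markers fixed for the tissue check, 4 had a single-gene probe set (RCA and 3 LHCB4 genes). Their summed signal was 11484 to 13540 on lug-3 leaf arrays and 11201 to 13643 on wild-type leaf arrays, above the 4810 to 7084 on flower arrays. Markers of pollen, anther, ovule and seed, root and shoot apex summed to 957 to 1112 on lug-3 leaf arrays and 951 to 1126 on wild-type leaf arrays. Of these 53 markers, 24 were below a signal of 16.4 on every leaf array, among them the pollen genes MGH3 and ANX1, the tapetum gene AMS, the seed coat gene BAN and the meristem gene CLV3. Of 3 genes of the guard cell lineage, SPCH and MUTE were below that signal too, while FMA was not on all of them. No called member was found among the 19 tested markers of anther, ovule and seed, root and apex. Root markers summed to 97.3 to 135 on lug-3 leaf arrays and 125.5 to 247 on wild-type leaf arrays. Of 5 tested root markers, 3 had every lug-3 array below every wild-type array and none above (18.6% and 16.9% of all tested probe sets). With the GAPDH ratio, a fit described below, 2 root markers and 1 of ovule and seed were called lower, and none higher. The pollen list had 2 members higher and 2 lower of 14 tested, and its sum was 546 to 596 on lug-3 leaf arrays against 428 to 510 on wild-type leaf arrays. The 5 pollen and anther markers fixed for the tissue check and tested went the other way. They summed to 40.9 to 50.5 on lug-3 leaf arrays against 66.6 to 82.3 on wild-type leaf arrays. Of these 5, 1 was called lower and 4 were below a signal of 16.4 on every leaf array.

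Signals were compared on the log2(signal + 8) scale for the 17877 probe sets with a signal above 16.4 on at least 3 of the 12 arrays. A probe set is called here when limma's test gave a Benjamini-Hochberg adjusted p below 0.05 over all of them, and a change is the log2 difference, lug-3 minus wild type, with its standard error (n = 3 arrays each). Such a difference understates the change of dim probe sets. The background was high: 22.3% of tested probe sets were called, 11.3% as higher and 11.0% as lower in lug-3 leaves, with a median change of -0.01. Where a gene list holds about that share of calls, the list is not told apart from the rest. Lists and members were chosen with earlier results of these data known, so a higher share describes a list and is no independent test. Of the calls, 14 higher ones were above the signal limit in lug-3 leaves alone and 16 lower ones in wild-type leaves alone. Those probe sets could pass the filter through the brighter group only.

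The control ratios that report on RNA quality lay apart between the leaf groups. The GAPDH 3'/5' ratio, which grows as transcripts are broken or incompletely copied, was 1.47, 1.68 and 1.58 on the lug-3 leaf arrays, against 1.71, 2.83 and 3.44 on the wild-type leaf arrays. The actin ratio was 2.22, 2.46 and 2.59 in lug-3 leaves, against 2.84, 5.09 and 5.37 in wild-type leaves. For both, the groups did not overlap, and p was 0.1 by exact permutation of the arrays (two-sided), the lowest value possible with 3 arrays in each group. The ubiquitin ratio overlapped, at 1.72, 1.59 and 1.49 against 1.43, 2.10 and 2.19 (exact permutation p = 0.4). In GAPDH and actin wild-type leaves 1 lay just above the lug-3 arrays and wild-type leaves 2 and 3 far above them, while in ubiquitin wild-type leaves 1 lay below every lug-3 array.

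**Figure D1:**
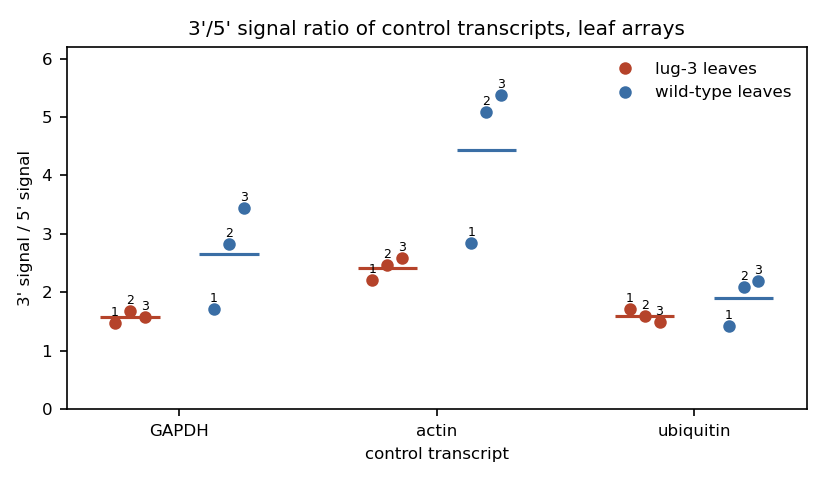
The 3'/5' signal ratio of GAPDH, actin and ubiquitin (vertical axis, a plain ratio) on each leaf array, with array numbers beside the points and a bar at the mean of each group. Wild-type leaves 1 is near the lug-3 arrays in GAPDH and actin, while wild-type leaves 2 and 3 are above 2.8 in GAPDH and above 5 in actin.

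The lists were therefore also read in 2 further fits, called the quality fits below. One added the GAPDH ratio of each array as a covariate, in which 15.8% of probe sets were called (9.13% higher, 6.62% lower). The other kept wild-type leaves 1 as the sole wild-type leaf array, with its spread taken to be that of the other arrays, and called 16.6% (9.94% higher, 6.64% lower). Of the 3993 calls, 2215 (55.5%) were also called in the same direction with the GAPDH ratio, 2084 (52.2%) with wild-type leaves 1 alone and 1860 (46.6%) in both, and no call turned its sign in either. Of lower calls 929 of 1973 (47.1%) remained called with the GAPDH ratio, and of higher calls 1286 of 2020 (63.7%). In 35.6% of calls wild-type leaves 1 was the wild-type array nearest to the lug-3 mean, compared with 34.1% of all tested probe sets. Its array weight, which is low where an array lies far from its group, was 0.342, against 0.491 to 1.46 on the other leaf arrays. A single wild-type array gives a less precise change, and the GAPDH ratio lay apart between the leaf groups. A call lost in a quality fit therefore need not mark an effect of RNA quality. The part of lost precision was not tested. Each leaf array was also left out in turn, and such an array is named below by its genotype and replicate number. Of the tissue markers, the trichome gene TRY had 104, 61.6 and 76.8 in lug-3 leaves, against 94.2, 138 and 153 in wild-type leaves and was called lower (change -0.62, adjusted p = 0.0464). The leaf marker LHCB4.2 was called higher (change 0.65, adjusted p = 0.0296). Neither was called with the GAPDH ratio (0.261 for TRY, 0.131 for LHCB4.2), with wild-type leaves 1 alone (0.576 and 0.0746) or without lug-3 array 2, lug-3 array 3 or wild-type array 3, and TRY also not without wild-type array 2 nor LHCB4.2 without wild-type array 1 (adjusted p up to 0.172 and 0.0935).

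**Figure D2:**
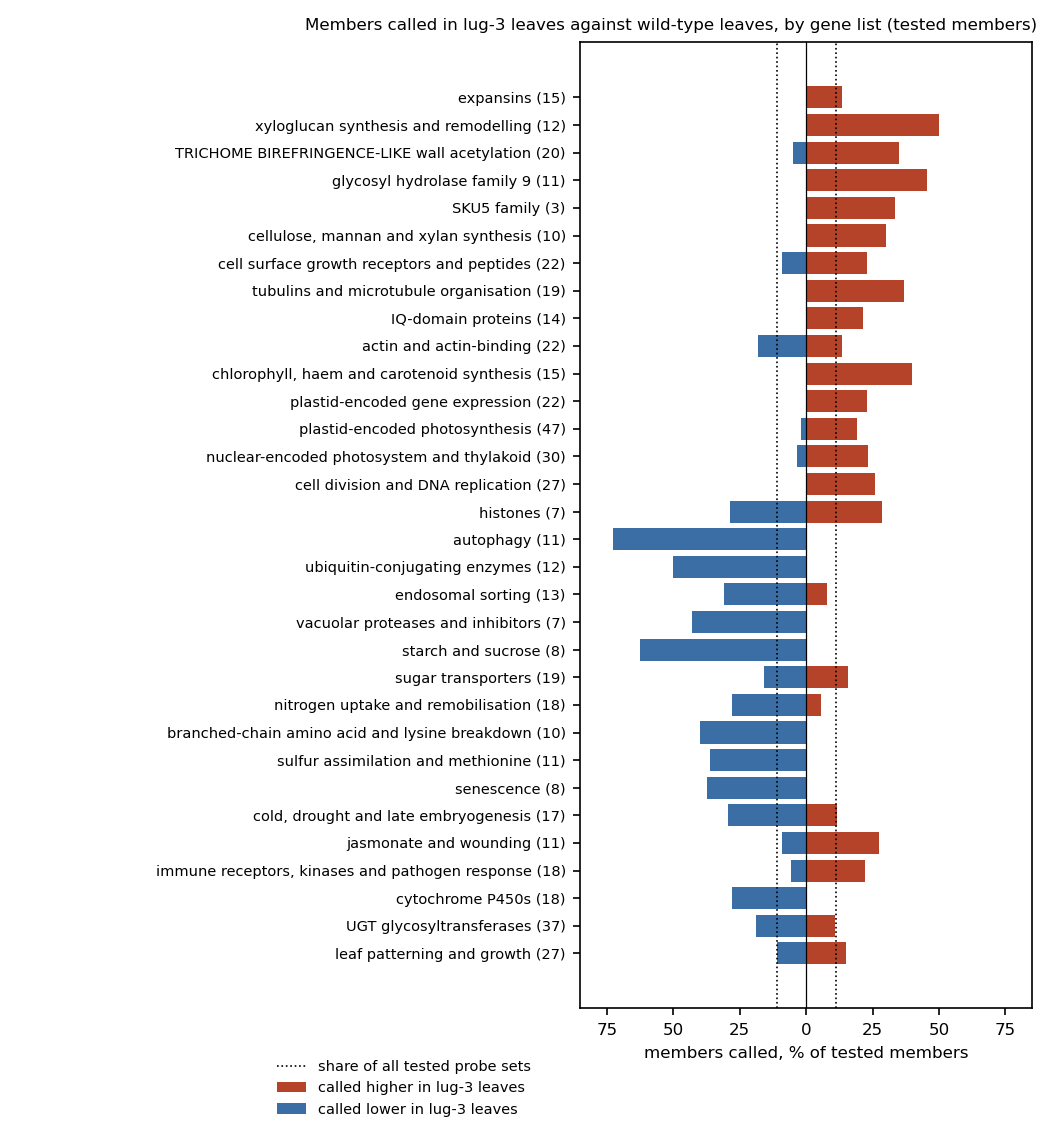
Share of the tested members of each gene list called higher (to the right) or lower (to the left) in lug-3 leaves than in wild-type leaves, in percent, with the number of tested members in parentheses. The dotted lines mark the shares of all tested probe sets, 11.3% higher and 11.0% lower, and the autophagy and starch lists reach farthest to the left.

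Xyloglucan is the main tether between cellulose fibres in leaf walls, and 6 of 12 tested genes that make or remodel it were higher in lug-3 leaves and none was lower, with a median change of 0.61. XTH32, which cuts and rejoins xyloglucan chains, had signals of 188, 248 and 234 on lug-3 leaf arrays, against 30.8, 70.3 and 55.1 on wild-type leaf arrays. The 2 groups were well apart, and the change was 2.00 ± 0.23 (adjusted p = 0.000208). CSLC04, a synthase of the glucan backbone, had 465, 436 and 457 in lug-3 leaves, against 204, 166 and 206 in wild-type leaves. Its arrays were tight within each group (change 1.21 ± 0.12, adjusted p = 0.000118). XTH33 and ATCSLC08 rose by 1.09 and 0.57, the first from low signals of 31.3, 8.07 and 20.2 in lug-3 leaves against 3.66 to 4.91 in wild-type leaves. XTH16 rose by 1.05, but was not called without lug-3 array 2 (adjusted p = 0.0526) or wild-type array 3 (0.0519). Of the 6 called genes, 4 held with the GAPDH ratio, 4 with wild-type leaves 1 alone and 3 in both.

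Family 9 glycosyl hydrolases, endoglucanases of which some trim cellulose during its synthesis, had 5 of 11 members higher and none lower. When the leaf arrays alone set the spread, 3 were called higher. Of these 5, 4 held in both quality fits, but the median of the list had no stable sign: it was 0.24 with all arrays, 0.045 with the GAPDH ratio, -0.05 with wild-type leaves 1 alone, -0.08 without wild-type array 3 and 0.17 to 0.54 without any other array. GH9B8 had 42.4, 74.2 and 77.7 in lug-3 leaves, against 8.50, 23.7 and 26.5 in wild-type leaves, and GH9B7 had 196, 254 and 222 against 57.7, 110.4 and 76.2. In neither did the groups overlap, as in 35.5% of all tested probe sets, and the changes were 1.43 ± 0.28 and 1.41 ± 0.19 (adjusted p = 0.00386 and 0.000471). GH9C2 and GH9B5 rose by 1.21 and 0.71, and the fifth, GH9B13, was below a signal of 16.4 on every leaf array and lost its call without lug-3 array 1 (adjusted p = 0.111), lug-3 array 2 (0.126), wild-type array 1 (0.0638) or wild-type array 3 (0.103). The TRICHOME BIREFRINGENCE-LIKE family, which holds enzymes that acetylate wall polysaccharides, had 7 of 20 members higher and 1 lower. When the leaf arrays alone set the spread, 3 were called higher and none lower. TBL45 was the most raised, at 86.5, 163 and 188 in lug-3 leaves, against 17.2, 38.6 and 63.9 in wild-type leaves, a change of 1.74 ± 0.35 (adjusted p = 0.00497). Lug-3 leaves 1 was the lowest of the lug-3 arrays for this gene and stood above each wild-type array. TBL26, TBL37 and TBL35 rose by 1.33, 1.17 and 0.91, while TBL38 fell by 1.72 and was not called with the GAPDH ratio (adjusted p = 0.0912). Of the 7, 5 held in both quality fits, and without lug-3 leaves 2 the higher count of this family was 4.

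Expansins, proteins that loosen walls without cutting them, were called in a share near the background, 2 of 15, both higher. EXPA8 had 186, 193 and 205 in lug-3 leaves, against 30.8, 62.3 and 132 in wild-type leaves. The lug-3 arrays lay within a narrow range and the wild-type arrays spread over more than 4-fold (change 1.48 ± 0.34, adjusted p = 0.00933). EXLA1, an expansin-like gene, rose by 1.49. SKU5, a GPI-anchored wall protein known from directional root growth, had 278, 486 and 519 against 57.0, 124 and 133, with every lug-3 array above every wild-type array (change 1.98 ± 0.30, adjusted p = 0.000983). Its relatives sks16 and sks18 did not pass the test, with changes of -0.02 and 0.57. The pectin methylesterase ATPMEPCRB had 248, 245 and 254 in lug-3 leaves, against 54.9, 29.9 and 18.1 in wild-type leaves, and kept a change of 2.03 with the GAPDH ratio (adjusted p = 0.0014). Cellulose, mannan and xylan synthesis had 3 of 10 members higher and none lower. These were COB, which orients cellulose deposition (change 0.76), IRX15-L, a xylan gene (0.97), and the mannan synthase gene CSLA03 (1.42). With the GAPDH ratio the adjusted p was 0.0467, 0.0933 and 0.155, and none was called with wild-type leaves 1 alone. CSLA03 also lost its call without lug-3 array 2 (adjusted p = 0.0856), lug-3 array 3 (0.0776) or wild-type array 2 (0.0813).

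Receptors and peptides that report on the wall and set its growth moved in both directions, with 5 of 22 members higher and 2 lower. THE1 (THESEUS1), a receptor kinase that senses wall damage and restrains elongation, had 144, 159.8 and 179.8 in lug-3 leaves, against 58.4, 59.2 and 65.3 in wild-type leaves. The arrays of each group lay close together, and the change was 1.29 ± 0.11 (adjusted p = 4.73e-05), with 1.38 under the GAPDH ratio. The RALF-like peptides are small secreted peptides, some of which are ligands of this receptor family. RALFL34 had 344, 296 and 351 in lug-3 leaves, against 80.6, 173 and 127 in wild-type leaves (change 1.38 ± 0.21, adjusted p = 0.0011). RALFL32 and RALFL24 rose by 1.44 and 0.96. RALFL33 rose by 0.59 but lost its call without lug-3 array 1 (adjusted p = 0.113), lug-3 array 2 (0.0534), wild-type array 1 (0.0545), wild-type array 2 (0.0953) or wild-type array 3 (0.109). RALFL31 had 1.10, 2.22 and 7.76 in lug-3 leaves, against 26.9, 31.1 and 33.0 in wild-type leaves, a fall of 1.75 (adjusted p = 0.000147). RALFL26 was at or below 1.87 in lug-3 leaves, against 10.3, 13.1 and 17.6 in wild-type leaves, and its adjusted p was 0.0162; it was not called without wild-type array 3 (adjusted p = 0.0572), which left 1 lower member. Of the 5 higher members 3 held with the GAPDH ratio and 4 with wild-type leaves 1 alone, and of the 2 lower ones 1 in each.

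Of 19 tested tubulins and microtubule organisers, 7 rose and none fell (median change 0.22). When the leaf arrays alone set the spread, 3 were called higher. Of these 7, 5 held in both quality fits, and TUB5 and TUB9 were called in neither. TUB1, a beta-tubulin, had 39.3, 42.7 and 42.3 in lug-3 leaves, against 2.24, 10.7 and 16.1 in wild-type leaves. The wild-type arrays were all below the signal limit, and the change was 1.57 ± 0.24 (adjusted p = 0.00105). TUB7 had 75.3, 93.1 and 82.6 against 23.9, 39.4 and 40.0 (change 1.13 ± 0.15, adjusted p = 0.000556). TUB6 and TUB9 rose by 0.79 and 0.52, and TUB9 was not called with the GAPDH ratio (adjusted p = 0.0549). AT3G23090 (WDL3), a microtubule-associated protein, had 19.7, 21.1 and 17.9 in lug-3 leaves, against 2.58, 3.11 and 5.07 in wild-type leaves (change 1.25 ± 0.15); it passed the signal filter through lug-3 leaves alone, and of the other 18 members 6 rose. Beta-tubulin genes are close in sequence, and whether their probe sets share signal was not tested. IQ-domain proteins, calmodulin-binding partners of microtubules, had 3 of 14 members higher and none lower. IQD31 had 117, 157 and 137 in lug-3 leaves, against 55.0, 80.5 and 63.8 in wild-type leaves (change 0.97 ± 0.14, adjusted p = 0.000959), and iqd21 rose by 0.93. IQD19 rose by 0.71 and lost its call without lug-3 array 2 (adjusted p = 0.151), lug-3 array 3 (0.152), wild-type array 1 (0.117) or wild-type array 3 (0.145). Without wild-type leaves 2, 5 members were called higher.

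Actin genes did not share this lean: 3 of 22 members were higher and 4 lower, with a median change of -0.03. ACT11, an actin known from pollen and ovules, had 44.5, 56.8 and 55.8 in lug-3 leaves, against 14.5, 16.2 and 24.2 in wild-type leaves (change 1.21 ± 0.15, adjusted p = 0.000308). WLIM2a, an actin-bundling LIM protein, rose by 0.99. NET1C, of a family that binds actin, fell by 0.96 but had an adjusted p of 0.0733 with the GAPDH ratio. Among the 4 that fell, none was called lower with the GAPDH ratio, and without lug-3 array 2 or wild-type array 3 the count was 1.

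**Figure D3:**
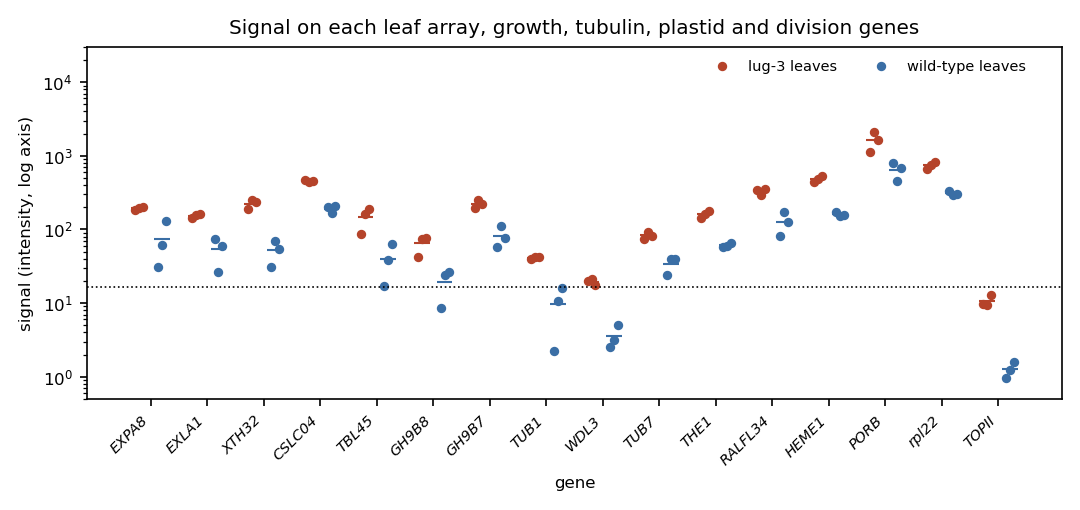
Signal (intensity, log axis) of 16 genes on each leaf array, lug-3 to the left of wild type for each gene, with a bar at the group mean; the dotted line is the signal limit of 16.4. In each gene the 3 lug-3 arrays lie above the 3 wild-type arrays, and TOPII lies below the limit throughout. The genes were picked from called ones, and 16.9% of all tested probe sets had every lug-3 array above every wild-type array.

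The pathway to chlorophyll, haem and carotenoids had 6 of 15 members higher and none lower, with a median change of 0.45, and these 6 were called in every fit that left out 1 leaf array. HEME1, a uroporphyrinogen decarboxylase, had 443, 480.5 and 539.6 in lug-3 leaves, against 171, 152 and 157 in wild-type leaves. This was close to 3-fold and far beyond the spread of either group (change 1.56 ± 0.17, adjusted p = 0.000162). Its second form HEME2 had 419, 526 and 527 against 237, 247 and 324 (change 0.85 ± 0.15). GSA1, which makes the first committed precursor 5-aminolevulinate, rose by 0.70, and CHLI2, a subunit of magnesium chelatase, by 0.73. PORB, the light-dependent protochlorophyllide reductase, had 1135, 2105 and 1658 in lug-3 leaves, against 810.2, 457 and 679.9 in wild-type leaves (change 1.31 ± 0.27, adjusted p = 0.0054). Of these 6, 5 held with the GAPDH ratio and 4 with wild-type leaves 1 alone. HEMB1, of an early step to haem, was called in neither (adjusted p = 0.0907 and 0.133), and PORB not with wild-type leaves 1 alone (adjusted p = 0.0913).

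Among genes of the plastid's own genome, those for ribosomal proteins and the plastid polymerase had 5 of 22 members higher and none lower (median change 0.35). Of these, rpl14, rpl16, rps3 and rpl22 are neighbours by their locus codes, so they need not be separate changes. Whether they share a transcript was not tested. The ribosomal protein genes rpl22 and rpl14 stood out. Transcripts of rpl22 had 652, 751 and 824 in lug-3 leaves, against 334, 289.8 and 304 in wild-type leaves (change 1.24 ± 0.16, adjusted p = 0.000471), and rpl14 rose by 1.22. Another, rps3, rose by 0.69. The ribosomal protein gene rpl16 lost its call without lug-3 array 2 (adjusted p = 0.13), lug-3 array 3 (0.116), wild-type array 1 (0.0892), wild-type array 2 (0.0787) or wild-type array 3 (0.0617). The polymerase gene rpoB lost its call without lug-3 array 3 (adjusted p = 0.0929) or wild-type array 2 (0.0767). Without lug-3 array 3 or wild-type array 2 the count was 3. Of the 5, rpl22, rpl14 and rps3 held in both quality fits, and rpl16 and rpoB in neither.

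Counts of plastid genes of photosynthesis moved with the arrays kept in the fit. Of 47 tested, 9 were higher and 1 was lower. Of the 9, 3 held with the GAPDH ratio and 1 with wild-type leaves 1 alone, a fit that called 3 members lower. The higher count ran from 2 without lug-3 leaves 3 to 13 without wild-type leaves 1. For psbD, a core protein of photosystem II, signals were 718, 737 and 850.0 in lug-3 leaves, against 579.6, 279.9 and 205 in wild-type leaves. The order of the wild-type arrays was the reverse of that of their GAPDH ratios, and the change was 1.23 ± 0.32 (adjusted p = 0.0184). It was 0.71 with the ratio (adjusted p = 0.213) and 0.40 with wild-type leaves 1 alone (adjusted p = 0.412), and it was not called without lug-3 array 3 (adjusted p = 0.0632), wild-type array 2 (0.0536) or wild-type array 3 (0.0663). That order of the wild-type arrays, counted after the values of these genes were seen, was found in 24 of the 47 genes (51.1%) and in 16.3% of all tested probe sets. Its part in the result was not tested. For ndhH, of the plastid NADH dehydrogenase-like complex, the change was 1.24 ± 0.23 (adjusted p = 0.00283), and 0.78 with the ratio (adjusted p = 0.0326).

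Nuclear genes for photosystems and thylakoids had 7 of 30 members higher and 1 lower, and the higher count fell to 2 without lug-3 leaves 2. Of the 7, 3 held with the GAPDH ratio, 3 with wild-type leaves 1 alone and 2 in both, and the lower call held in neither. LIL3:1, a light-harvesting-like protein of chlorophyll synthesis, had 802, 787 and 802 in lug-3 leaves, against 432, 536 and 650.1 in wild-type leaves (change 0.57 ± 0.14, adjusted p = 0.0115). AT4G38100 (CURT1D), of a family that bends thylakoid membranes, rose by 0.53. PSB27, a photosystem II assembly protein, rose by 0.55 but not without lug-3 array 2 (adjusted p = 0.0753) or wild-type array 3 (0.0537). TROL, which tethers a reductase to the thylakoid, rose by 0.48 but not without lug-3 array 1 (adjusted p = 0.0523), lug-3 array 2 (0.062) or wild-type array 3 (0.0662). PIFI fell by 0.54 but not without lug-3 array 2 (adjusted p = 0.0582), and without wild-type leaves 1 the list had 4 lower members. Of 7 genes of carbon fixation and photorespiration 1 was called, and RCA, the activator of Rubisco, had a change of -0.25 that did not pass the test (adjusted p = 0.253).

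Genes of cell division and DNA replication were called higher in 7 of 27 cases and lower in none, with a median change of 0.17. PRL, the MCM7 subunit of the replicative helicase, had 38.4, 48.9 and 38.8 in lug-3 leaves, against 20.6, 16.3 and 24.4 in wild-type leaves (change 0.82 ± 0.15, adjusted p = 0.00255; 0.0228 with the GAPDH ratio). AUR2, an Aurora kinase of mitosis, had 16.1, 22.6 and 24.9 in lug-3 leaves, against 11.7, 9.05 and 2.92 in wild-type leaves, and was not called with the ratio (adjusted p = 0.115). TOPII, topoisomerase II, rose by 1.01, but its signals were 9.80, 9.38 and 12.9 against 0.963, 1.22 and 1.60, below the signal limit on every leaf array. Under the GAPDH ratio 2 members were called higher, with wild-type leaves 1 alone 3, and without wild-type leaves 3 also 3. Histone genes split. HIS1-3, a linker histone known to rise in drought, had 28.0, 18.6 and 22.1 in lug-3 leaves, against 64.9, 126 and 272 in wild-type leaves, a fall of 2.19 (adjusted p = 0.00307). The wild-type arrays spread over 4-fold and all lay above the lug-3 arrays. The core histone gene HTB2 rose by 0.51 but not without lug-3 array 2 (adjusted p = 0.086), lug-3 array 3 (0.0981), wild-type array 1 (0.0577) or wild-type array 3 (0.0529). HTB4, another core histone gene, rose by 0.42 but not without lug-3 array 2 (adjusted p = 0.0994), lug-3 array 3 (0.103) or wild-type array 1 (0.0897). HON4, another linker-type histone, fell by 0.56 but not without lug-3 array 2 (adjusted p = 0.0613). HTB1, HTB11 and HTR12 did not pass the test, with changes of 0.09, -0.09 and 0.29.

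Among these lists, chosen with earlier results of these data known, autophagy had the highest share of calls. Its 11 members were all tested, 8 fell and none rose, with a median change of -0.89, and these 8 fell in each of the 6 fits that left out 1 leaf array. ATG8 proteins coat the growing autophagosome and bind its cargo. ATG8B had 86.0, 90.5 and 100.2 in lug-3 leaves, against 199, 193 and 232 in wild-type leaves (change -1.11 ± 0.14, adjusted p = 0.000342). ATG8C had 196, 188 and 196 against 348, 432 and 429.7, and ATG8D had 149.6, 139.8 and 138 against 267, 269 and 300.2. For each of these genes every lug-3 array stood below every wild-type array, and the changes of ATG8C and ATG8D were -1.03 ± 0.13 and -0.93 ± 0.12 (adjusted p = 0.000355 and 0.000376). ATG8G and APG8H (AT3G15580) fell by 0.90 and 0.89. With the GAPDH ratio 7 members were called lower and with wild-type leaves 1 alone 7, with changes of -0.61 to -1.02 and -0.62 to -1.05 for the genes named here. ATG8 genes are close in sequence, and whether their probe sets share signal was not tested.

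Ubiquitin-conjugating enzymes, which hand ubiquitin to the ligases, had 6 of 12 members lower and none higher (median change -0.34). Of these, UBC29 had 293, 247 and 251 in lug-3 leaves, against 469, 512 and 409.8 in wild-type leaves (change -0.80 ± 0.14, adjusted p = 0.00239; 0.0106 with the GAPDH ratio). UBC30 fell by 0.48 but not without lug-3 array 3 (adjusted p = 0.0509). UBC32, an enzyme of the endoplasmic reticulum, fell by 0.46 but not without lug-3 array 2 (adjusted p = 0.0846) or wild-type array 2 (0.0631). Without lug-3 leaves 3 the count of lower members was 2. Of the 6, 2 held with the GAPDH ratio and 3 with wild-type leaves 1 alone. ESCRT genes, which sort membrane proteins into the vacuole, had 4 of 13 members lower and 1 higher. VPS60.2 had 68.3, 73.3 and 65.5 in lug-3 leaves, against 114, 129 and 138 in wild-type leaves (change -0.81 ± 0.13, adjusted p = 0.00143), and it was the one of the 4 that held in every fit that left out 1 array, and the one that held in each quality fit. VPS20.1, of the ESCRT-III complex, fell by 0.51 but not without lug-3 array 1 (adjusted p = 0.057), lug-3 array 3 (0.0869), wild-type array 1 (0.0567) or wild-type array 3 (0.0929). Without lug-3 array 1 or 3 the count of lower members was 1. VPS2.2 rose by 0.80 from signals under the limit on every leaf array.

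Of 7 vacuolar proteases and inhibitors 3 fell and none rose, and the count was 3 in every fit that left out 1 array. GAMMA-VPE, the vacuolar processing enzyme of vegetative tissue, had 1203, 919.8 and 1090 in lug-3 leaves, against 4924, 3703 and 4470 in wild-type leaves. Every lug-3 array was far below every wild-type array (change -2.02 ± 0.20, adjusted p = 0.00012), with -2.25 under the GAPDH ratio. APA1, an aspartic protease, had 2510, 2410 and 2281 against 3957, 3838 and 3556 (change -0.66 ± 0.099, adjusted p = 0.00102). BETA-VPE fell by 0.89 but was not called with the ratio (adjusted p = 0.122). The protease genes DELTA-VPE and CP1 and the inhibitors CYS1 and SERPIN1 did not pass the test, with changes of -0.10, 0.38, -0.23 and -0.27.

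**Figure D4:**
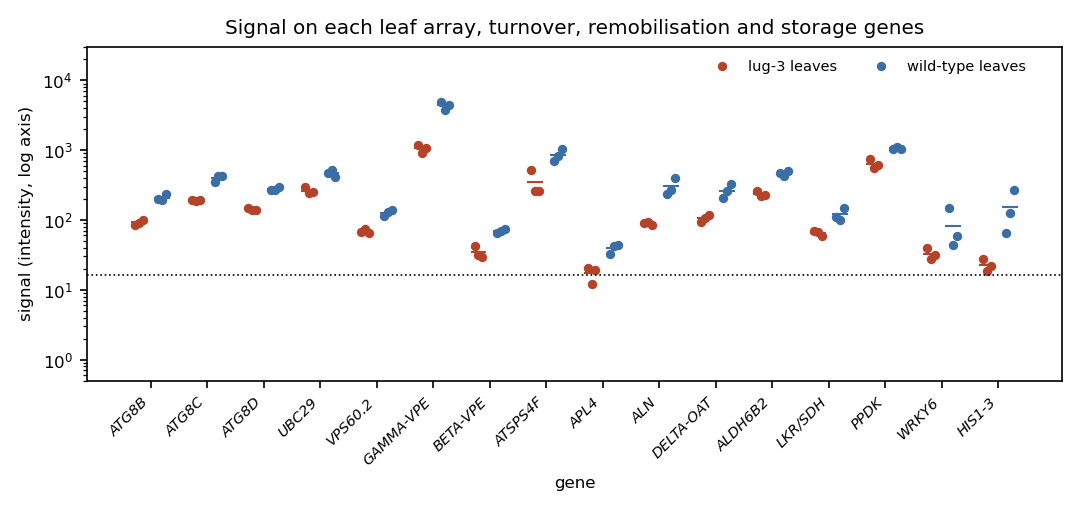
Signal (intensity, log axis) of 16 genes on each leaf array, lug-3 to the left of wild type for each gene, with a bar at the group mean; the dotted line is the signal limit of 16.4. In each gene the 3 lug-3 arrays lie below the 3 wild-type arrays, by most in HIS1-3 and GAMMA-VPE. The genes were picked from called ones, and 18.6% of all tested probe sets had every lug-3 array below every wild-type array.

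Genes of starch and sucrose turnover were lower in 5 of 8 cases and higher in none, with a median change of -0.68. ATSPS4F, a sucrose phosphate synthase, had 516, 263 and 264 in lug-3 leaves, against 705, 815 and 1038 in wild-type leaves (change -1.33 ± 0.23, adjusted p = 0.00212). Lug-3 leaves 1 was the highest lug-3 array and still below the wild-type ones. APL4 and APL3, large subunits of the enzyme that makes ADP-glucose for starch, had 20.5, 12.3 and 19.3 and 62.7, 47.1 and 62.0 in lug-3 leaves, against 32.8, 43.1 and 43.9 and 100.2, 126 and 94.7 in wild-type leaves. They fell by 0.93 and 0.81, and with the GAPDH ratio their adjusted p was 0.07 and 0.0802. F2KP, which sets the level of the regulator fructose 2,6-bisphosphate, fell by 0.59 and AMY1, an alpha-amylase, by 0.74. AMY1 was not called without lug-3 array 1 (adjusted p = 0.0677), lug-3 array 2 (0.0982), lug-3 array 3 (0.0751) or wild-type array 3 (0.119). With the ratio 1 of the 5, ATSPS4F, was called. DPE1, SBE2.2 and cwINV6 did not pass the test, with changes of -0.26, -0.10 and -0.62; cwINV6 passed it without lug-3 array 1 (adjusted p = 0.0384) or wild-type array 1 (0.0374).

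Sugar transporters moved one by one, 3 of 19 higher and 3 lower. SWEET17, a vacuolar fructose carrier, had 103, 209 and 216 in lug-3 leaves, against 30.5, 35.1 and 19.0 in wild-type leaves (change 2.30 ± 0.29, adjusted p = 0.00035). SWEET13 and SWEET11, which export sucrose towards the phloem, had 88.0, 78.0 and 66.3 and 1582, 1210 and 1290 in lug-3 leaves, against 435, 211 and 332 and 2588, 2532 and 2386 in wild-type leaves. Both fell, by 1.92 and 0.88 (adjusted p = 0.000726 and 0.000959), and both fell in each quality fit. TMT2, a sugar importer of the vacuole, fell by 0.81, and SFP2 rose by 0.69. SWEET2 rose by 0.54 but was not called without lug-3 array 2 (adjusted p = 0.0551), lug-3 array 3 (0.0632), wild-type array 2 (0.0568) or wild-type array 3 (0.0704).

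The list of nitrogen uptake and remobilisation had 5 of 18 members lower and 1 higher, its median change of -0.08 was near that of all probe sets, and 5 or 6 were lower in each fit that left out 1 array. ALN, the allantoinase of purine breakdown, had 89.9, 92.1 and 85.5 in lug-3 leaves, against 238, 272 and 401 in wild-type leaves. The lug-3 arrays were within a few units of each other and the change was -1.65 ± 0.19 (adjusted p = 0.000203). AAH, the next enzyme, fell by 0.77. DELTA-OAT, which feeds ornithine into glutamate, had 92.1, 107 and 118 in lug-3 leaves, against 204, 260.5 and 327 in wild-type leaves (change -1.24 ± 0.17, adjusted p = 0.000571). The asparaginase gene ASPGA1 and the NPF transporter gene AT1G68570 (NPF3.1) fell by 0.58 and 0.61. AT2G26690 (NPF6.2) was the one that rose, with 308, 621 and 658 in lug-3 leaves, against 155, 191 and 159 in wild-type leaves (change 1.54 ± 0.25). Of the 5 lower members all but AAH held in both quality fits, and without wild-type leaves 2 the list had 3 higher members.

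Breakdown of branched-chain amino acids and lysine, a mitochondrial route used when sugar is short, had 4 of 10 members lower and none higher, and the same count in each fit that left out 1 array. ALDH6B2, a dehydrogenase of valine breakdown, had 257, 217 and 228 in lug-3 leaves, against 466, 425 and 508 in wild-type leaves (change -0.97 ± 0.11, adjusted p = 0.000245). AT4G33150 (LKR/SDH), which opens lysine breakdown, had 70.3, 67.2 and 59.5 against 109.6, 99.6 and 151 (change -0.78 ± 0.15, adjusted p = 0.00351). MCCA, of leucine breakdown, fell by 0.77, and ETFALPHA, which passes the electrons on, by 0.58. All 4 were called lower in both quality fits. Sulfur assimilation and methionine had 4 of 11 members lower and none higher, APS4, OASA2, MGL and MMT, with changes of -0.34 to -0.79. None was called lower in either quality fit, and the count was 0 without lug-3 leaves 2.

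Senescence genes were called lower in 3 of 8 cases, GAMMA-VPE among them, and higher in none. PPDK, which aids nitrogen export from old leaves, had 736, 562 and 611 in lug-3 leaves, against 1042, 1121 and 1031 in wild-type leaves (change -0.74 ± 0.14, adjusted p = 0.00284). WRKY6, a regulator of senescence, had 39.4, 28.1 and 31.7 in lug-3 leaves, against 148, 43.6 and 58.3 in wild-type leaves. Its change was -0.99 ± 0.32 (adjusted p = 0.0449), or -0.52 without wild-type leaves 1, the highest array, and -1.68 with the GAPDH ratio (adjusted p = 0.00471). It was not called without lug-3 array 1 (adjusted p = 0.0554), lug-3 array 2 (0.13), lug-3 array 3 (0.109), wild-type array 1 (0.0737) or wild-type array 3 (0.0536). YLS5 had 326, 224 and 237 in lug-3 leaves, against 479, 337 and 297 in wild-type leaves, which overlap; its change of -0.48 did not pass the test (adjusted p = 0.0812) but did with the GAPDH ratio (0.0175). It was called without lug-3 array 1 (adjusted p = 0.0286) or wild-type array 3 (0.0454). WRKY53, SAG101, SAG29 and AtS40-3 had overlapping groups and changes of 0.09, -0.31, -0.44 and 0.10. SAG29 was called without wild-type array 1 (adjusted p = 0.0423).

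Genes of cold, drought and late embryogenesis split, 2 of 17 higher and 5 lower. COR15A, which protects chloroplast membranes in the cold, and HVA22C rose by 1.48 and 0.91. COR27, a cold- and clock-regulated gene, had 31.1, 35.2 and 31.1 in lug-3 leaves, against 109.5, 58.9 and 71.7 in wild-type leaves (change -1.08 ± 0.19, adjusted p = 0.00246). DI21, drought-induced, and XERICO, which raises abscisic acid, fell by 1.34 and 0.94, and neither was called with the GAPDH ratio (adjusted p = 0.0748 and 0.125). COR47, a dehydrin, fell by 0.82 but not without lug-3 array 1 (adjusted p = 0.0699), lug-3 array 3 (0.0873), wild-type array 1 (0.0865) or wild-type array 3 (0.0746). Without lug-3 array 3 or wild-type array 1 the count of lower members was 3. Of the 5 lower members 3 held with the GAPDH ratio and 2 with wild-type leaves 1 alone.

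Of 11 jasmonate and wounding genes 3 were higher and 1 lower. Of the 3, 2 held with the GAPDH ratio, 2 with wild-type leaves 1 alone and 1 in both, and the lower call held in neither. ORA47, a transcription factor that turns on jasmonate synthesis, had 236, 223 and 250.5 in lug-3 leaves, against 106, 21.1 and 60.1 in wild-type leaves (change 2.00 ± 0.39, adjusted p = 0.0042), and an adjusted p of 0.0542 with the GAPDH ratio. JMT, which methylates jasmonate, rose by 1.53 but not without lug-3 array 2 (adjusted p = 0.085), lug-3 array 3 (0.0841) or wild-type array 2 (0.0519). Without lug-3 array 2 or 3 the count of higher members was 1. CHAT, an acyltransferase of leaf volatiles, fell by 0.64 but not without lug-3 array 1 (adjusted p = 0.0879), wild-type array 1 (0.058), wild-type array 2 (0.065) or wild-type array 3 (0.0771). Of 18 genes of immune receptors and pathogen response 4 were higher and 1 lower. With the GAPDH ratio 2 were higher and none lower, and with wild-type leaves 1 alone 1 was higher and 4 lower. The list's median turned from fit to fit, at 0.14 with all arrays, -0.20 with the ratio, -0.30 with wild-type leaves 1 alone, and -0.03, -0.11 and -0.04 without lug-3 array 1, wild-type array 2 and wild-type array 3. ATLP-1, a thaumatin-like gene, had 25.9, 13.5 and 27.1 in lug-3 leaves, against 3.41, 10.1 and 1.74 in wild-type leaves (change 1.22 ± 0.26, adjusted p = 0.0065). GRX480, a glutaredoxin of salicylate signalling, rose by 1.15. UGT76B1, which tunes defence by glucosylation, rose by 1.73 but not without lug-3 array 2 (adjusted p = 0.0724), lug-3 array 3 (0.0712) or wild-type array 3 (0.0581). Without lug-3 array 3 or wild-type array 3 the count of higher members was 2. The osmotin OSM34 had 4.72, 3.39 and 7.83 in lug-3 leaves, against 51.6, 12.7 and 167 in wild-type leaves. The wild-type arrays differed more than 10-fold among themselves, and the fall of 2.18 was not called without lug-3 array 2 (adjusted p = 0.0682) or wild-type array 3 (0.0524).

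Cytochrome P450s had 5 of 18 members lower and none higher, each by 0.49 to 0.66; CYP71B6 had 309.8, 253 and 255 in lug-3 leaves, against 412, 382 and 391 in wild-type leaves (change -0.53 ± 0.12, adjusted p = 0.00815) and was the one of the 5 called in both quality fits. Without any single lug-3 leaf array the count was 3. UGT glycosyltransferases had 7 of 37 members lower and 4 higher, and 3 of the 7 were above the signal limit in wild-type leaves alone, so that they passed the filter only where they were high. Of the other 34 members 4 were lower and 4 higher, a share near the background. In the quality fits 3 of the 7 lower and 2 of the 4 higher calls held. The examples UGT73B5 and UGT71B6 are among the 3 that passed through wild-type leaves alone. UGT73B5 had 4.66, 7.98 and 7.47 in lug-3 leaves, against 44.7, 34.6 and 42.7 in wild-type leaves (change -1.73 ± 0.19, adjusted p = 0.00015). UGT71B6, which glucosylates abscisic acid, had 5.98, 10.7 and 6.02 against 36.5, 20.9 and 23.9 (change -1.16 ± 0.17, adjusted p = 0.000802). UGT76C2, which inactivates cytokinins, had 35.1, 41.0 and 43.5 in lug-3 leaves, against 7.30, 8.81 and 18.0 in wild-type leaves (change 1.34 ± 0.19, adjusted p = 0.000773). UGT78D1, a flavonol rhamnosyltransferase, rose by 0.78. Without lug-3 array 2 or 3, 2 members of the family were called higher and 4 lower. DFR, an enzyme of anthocyanin synthesis, fell by 2.06 and was lower in lug-3 flowers too (change -3.05, adjusted p = 0.000125).

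The labels describe lug-3 leaves as narrower, with longer petioles. Genes of leaf patterning and growth were called in a share near the background, 4 of 27 higher and 3 lower. Of the 4, 2 held with the GAPDH ratio and 1 with wild-type leaves 1 alone, and none of the 3 held in either. PGY1, a ribosomal protein needed for leaf polarity, had 762, 844 and 883 in lug-3 leaves, against 556, 491 and 484 in wild-type leaves (change 0.69 ± 0.12, adjusted p = 0.0018). LEP (LEAFY PETIOLE), a factor that promotes blade on the petiole, had 107, 112 and 84.0 in lug-3 leaves, against 64.2, 46.8 and 52.6 in wild-type leaves (change 0.80 ± 0.18, adjusted p = 0.0076). It was not called with wild-type leaves 1 alone (adjusted p = 0.134). SAMBA, a regulator of the anaphase-promoting complex, rose by 0.42 but not without lug-3 array 2 (adjusted p = 0.06) or wild-type array 3 (0.056). TCP15, a TCP factor, rose by 0.33 but not without lug-3 array 1 (adjusted p = 0.0598), lug-3 array 2 (0.0973), lug-3 array 3 (0.0549), wild-type array 1 (0.0571), wild-type array 2 (0.0516) or wild-type array 3 (0.0693). SEU, the adaptor that brings LEUNIG to DNA-binding factors, had 123, 119.5 and 117 in lug-3 leaves, against 154, 149 and 155 in wild-type leaves. The groups did not overlap, the change was -0.33 ± 0.094 (adjusted p = 0.027), and it was not called without lug-3 array 2 (adjusted p = 0.0735), lug-3 array 3 (0.0843) or wild-type array 3 (0.0645), nor with the GAPDH ratio (adjusted p = 0.0624). Without wild-type leaves 3 the list had 2 higher members, and without lug-3 array 2, lug-3 array 3 or wild-type array 3 it had no lower one.

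The genes of rank 11 to 25 by size of change, in each direction and with groups that did not overlap, include several without a RefSeq name. ATCES1, a ceramidase of sphingolipid breakdown, had 49.5, 50.0 and 50.0 in lug-3 leaves, against 262, 234 and 223 in wild-type leaves, a change of -2.10 ± 0.14 (adjusted p = 9.25e-06). AT1G23205 had 72.6, 56.5 and 75.0 in lug-3 leaves, against 13.2, 12.9 and 4.52 in wild-type leaves (change 2.10 ± 0.19, adjusted p = 6.46e-05). AT4G18975 had 49.0, 40.0 and 47.6 in lug-3 leaves, against 150.3, 218 and 236 in wild-type leaves (change -1.95 ± 0.16, adjusted p = 2.95e-05). Groups that did not overlap were a condition for these ranks, so this is no separate result for these 3 genes. AT4G13840 (CER26), an enzyme of wax chain extension, had 475, 416 and 484 in lug-3 leaves, against 147, 96.1 and 75.1 in wild-type leaves (change 2.08 ± 0.22). MSRB6, which repairs oxidised methionine, had 42.2, 105 and 109 against 18.7, 25.3 and 1.24 (change 2.11 ± 0.42), with lug-3 leaves 1 below the other lug-3 arrays. The remaining higher genes, AT4G21650, AT1G09750, AT4G13050, AT2G43550, AT5G48490, AT4G38660, AT5G07030, AT4G15260, AT5G50740 and AT1G29660, rose by 2.01 to 2.30. The remaining lower ones, AT3G62960, AT1G01640, AT4G16000, AT5G02580, AT2G17710, AT2G41380, AT1G67920 and AT4G10050, changed by -1.91 to -2.18. Of these 30 genes, OSM34 and ORA47 were not called with the GAPDH ratio. Chromosome 4 held 14.5% of the tested single-gene loci, 9 of the 25 largest rises and 11 of the 25 largest falls. Of its loci, 6.2% were called with a change over 2-fold, compared with 3.57% to 4.34% on the other chromosomes. The cause of this excess was not tested. Genes described above that lie on chromosome 4 include RALFL31, RALFL32, RALFL33, SWEET17, DI21, PPDK and IQD19.

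**Figure D5:**
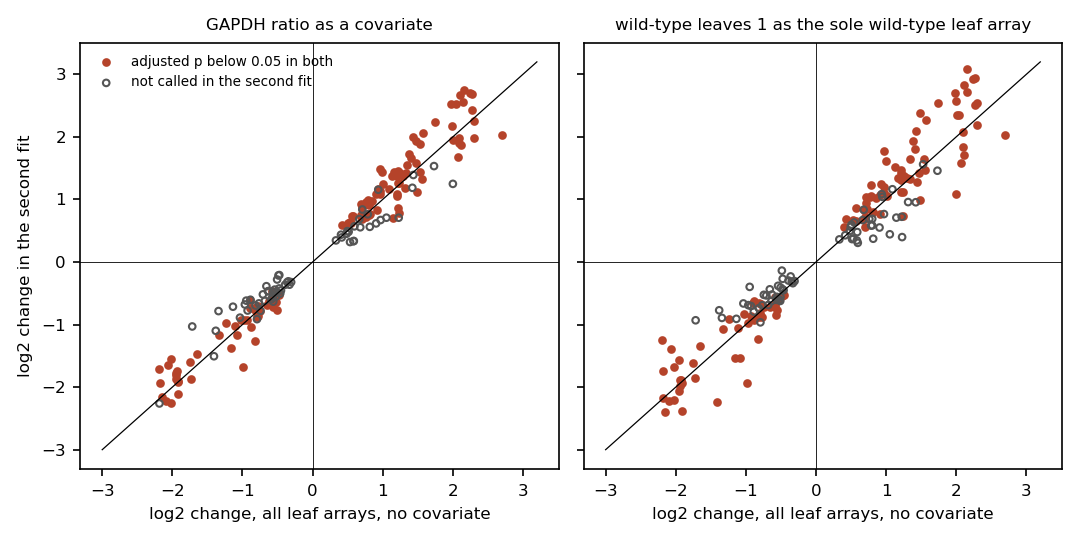
Log2 change of the 180 called genes of the naming rule in the fit of all leaf arrays (horizontal) against that with the GAPDH ratio as a covariate (left panel) or with wild-type leaves 1 as the sole wild-type leaf array (right panel). Filled points were called in both fits and open points in the first alone, and no point changes sign.

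The leaf changes often differed from those in flowers. The change in flowers minus that in leaves was called for 23.0% of tested probe sets, and 113 of the 180 called genes of the naming rule were among them. These genes were chosen on their leaf values, which enter the difference, so the 2 shares cannot be set against each other. The 2 comparisons share no array, though the spread was estimated over all 12. No control ratio entered the test of the difference. On flower arrays the GAPDH ratio was 1.654, 2.021 and 3.105 in lug-3, against 1.625, 1.777 and 2.072 in wild type. The highest ratios were thus on wild-type arrays in leaves and on a lug-3 array in flowers. The part of RNA quality in the differences between tissues was not tested. Of the 6 chlorophyll and haem genes that rose in leaves 4 differed from flowers, of the 7 microtubule genes 6, of the 6 xyloglucan genes 5, of the 8 autophagy genes 6 and of the 5 lower starch and sucrose genes 4. The flower comparison itself called 12.0% of probe sets (5.27% as higher, 6.75% as lower). In 17 of the named genes the change was called in both tissues and in opposite directions. EXPA8 had a change of 1.48 in leaves and -2.13 in flowers (difference -3.61, adjusted p = 0.000671). HIS1-3 had -2.19 in leaves and 1.70 in flowers (difference 3.89, adjusted p = 0.00111). THE1 had 1.29 in leaves and -0.47 in flowers (adjusted p of the difference = 8.58e-05), ATSPS4F -1.33 and 0.90 (0.00107), and ACT11 1.21 and -0.89 (0.00014). Genes called in the same direction in both tissues included AT4G18975, with -1.95 in leaves and -2.09 in flowers, and AT4G21650, with 2.30 and 2.47, both on chromosome 4. For these the difference did not pass the test (adjusted p = 0.684 and 0.729).

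The 78 lists held 1104 loci, of which 955 were tested, 139 called higher and 111 lower (26.2%). Phenylpropanoid and lignin genes (14 tested), RNA polymerase subunits (12), glutamate receptors (7) and cation/proton exchangers (5) had none. With the GAPDH ratio 2 phenylpropanoid and lignin genes were called lower and 1 RNA polymerase subunit higher, and none of the receptors or exchangers. Beta-glucosidases had 5 of 14 members higher and none lower, of which 4 held in both quality fits, or 3 higher without lug-3 array 1, lug-3 array 3 or wild-type array 2. Serine carboxypeptidase-like genes had 4 of 25 higher and 1 lower, or 2 lower without lug-3 array 1 or wild-type array 3. That share of 20.0% was near the 22.3% of all tested probe sets. With the GAPDH ratio 2 of the 4 higher calls and the lower one held.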

How the data were processed

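The deposited table holds 1 intensity per probe set and array, on a linear scale and scaled by the authors to a common trimmed mean on each array, as its values show; the submitters' processing notes list the programs MAS5 and GCOS, without version or setting. Arrays were grouped by the genotype and tissue in the labels. The 64 control probe sets were left out, and 17877 of 22746 probe sets had a signal over 16.4 on at least 3 of 12 arrays. Signals were turned into log2(signal + 8) and fitted with limma 3.58.1 in R 4.3.3 on all 12 arrays, with 4 group means and Benjamini-Hochberg adjustment. The fit was tested on simulated data. The number of arrays limits the precision. Probe sets were named from the platform annotation and RefSeq (TAIR10.1), with 13513 of them matched to 1 gene and 8730 unnamed here, and a locus is given by its probe set of highest mean signal. The 78 gene lists were assembled by name only and replaced an earlier pattern match. Members and lists were chosen with earlier results of these data known. Named were ranks 11 to 25 each way, up to 5 called loci per list and direction, every tested member of lists of up to 8, and SEU; a larger change was named where it belonged to a list. Promoter motifs were not analysed here. The alternatives were other scalings, pseudocounts, filters and array weights, the leaf arrays alone, the GAPDH or actin ratio as a covariate, wild-type leaves 1 alone, the replicate number as a block and each leaf array left out.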

Additional observations from a re-analysis of the deposited data

Results flagged for a closer look

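Whether lug-3 changed a gene by the same amount in flowers as in leaves was tested for every probe set with limma's interaction contrast, and the adjusted p was below 0.05 for 113 of the 180 called genes of the naming rule. Each value below is the log2 change in flowers minus that in leaves, so a negative value for a gene that rose in leaves means a smaller rise or a fall in flowers. These genes were chosen on a called leaf change, which enters the difference with a minus sign. That choice favours a difference opposite to the leaf change, so the signs below are no separate result. No control ratio entered this contrast. In all, 17 of these genes were called in both tissues in opposite directions. Among genes of cytoskeleton the difference lay below 0 for ACT11 (-2.1), AT3G23090 (-1.17), IQD19 (-1.17), IQD31 (-1.02), TUB1 (-1.71), TUB6 (-0.89), TUB7 (-1.72), TUB9 (-0.86), WLIM2a (-1.14) and iqd21 (-0.96). Among genes of cytoskeleton the difference lay above 0 for NET1C (1.13) and NET1D (0.99). Among genes of carbon and nitrogen the difference lay below 0 for AT2G26690 (-1.37), SWEET17 (-2.23) and SWEET2 (-0.87). Among genes of carbon and nitrogen the difference lay above 0 for ALDH6B2 (1.07), ALN (1.55), APL3 (0.93), APL4 (1.45), ASPGA1 (0.63), AT1G68570 (0.88), ATSPS4F (2.23), DELTA-OAT (1.3), ETFALPHA (0.65), F2KP (0.98), MCCA (0.7), SWEET11 (0.79) and TMT2 (1.09). Among genes of turnover the difference lay below 0 for VPS2.2 (-0.82). Among genes of turnover the difference lay above 0 for APA1 (0.68), APG8H (0.81), ATG8B (0.95), ATG8C (0.87), ATG8D (0.62), ATG8G (0.89), BETA-VPE (0.97), GAMMA-VPE (1.55), UBC29 (0.68) and VPS60.2 (0.75). Among genes of largest changes the difference lay below 0 for AT1G09750 (-2.76), AT1G23205 (-2.3), AT1G29660 (-3.46), AT2G43550 (-1.67), AT4G13840 (-1.51), AT4G38660 (-2.29), AT5G07030 (-2.15), AT5G48490 (-2.02), AT5G50740 (-1.86), ATPMEPCRB (-1.6) and MSRB6 (-1.99). Among genes of largest changes the difference lay above 0 for AT1G01640 (2.29), AT1G67920 (2.89), AT2G17710 (0.86), AT4G10050 (0.81), AT4G16000 (1.23) and ATCES1 (1.21). Among genes of plastid the difference lay below 0 for AT4G38100 (-0.67), GSA1 (-0.95), HEME1 (-1.63), HEME2 (-0.84), PORB (-1.38), atpI (-1.49), ndhH (-1.16), psaC (-0.85), rpl14 (-1.42), rpl22 (-1.22) and rpoB (-1.22). Among genes of plastid the difference lay above 0 for PIFI (1.27). Among genes of patterning the difference lay below 0 for LEP (-0.99), PGY1 (-0.86) and TCP15 (-0.47). Among genes of patterning the difference lay above 0 for AT5G47390 (0.69) and SLOMO (0.5). Among genes of nucleus the difference lay below 0 for AUR2 (-1.53), HTB2 (-0.86), HTB4 (-0.81), PRL (-0.93) and TOPII (-1.19). Among genes of nucleus the difference lay above 0 for HIS1-3 (3.89). Among genes of stress and specialised metabolism the difference lay below 0 for HVA22C (-0.55), THI2.1 (-1.38), UGT76C2 (-1.4) and UGT78D1 (-0.81). Among genes of stress and specialised metabolism the difference lay above 0 for CHAT (1.4), COR27 (1.14), CYP71B28 (1.11), CYP71B34 (1.04), CYP71B37 (1.51), CYP71B6 (1.12), DI21 (1.46), TIL (1.05), UGT71B6 (1.14), UGT73B5 (1.78) and XERICO (1.95). Among genes of wall and growth the difference lay below 0 for COB (-0.81), CSLC04 (-1.28), EXLA1 (-1.56), EXPA8 (-3.61), GH9B13 (-1.02), GH9B5 (-1.14), GH9B7 (-1.55), RALFL24 (-1.79), RALFL34 (-1.34), SKU5 (-2.85), TBL26 (-0.84), TBL35 (-0.91), TBL37 (-1.14) and TBL45 (-2.18). The same held for THE1 (-1.77), XTH16 (-2.22), XTH32 (-1.12) and XTH33 (-1.4). Among genes of wall and growth the difference lay above 0 for TBL38 (1.6).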

How the results depend on the processing

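The totals depended most on which arrays gave the spread. With the 6 leaf arrays alone 1950 probe sets were called, 987 higher and 963 lower. That fit kept 48.2% of the 3993 calls, while both quality fits took part of their spread from the flower arrays. It called 7 autophagy genes and 1 ubiquitin-conjugating enzyme gene lower. It called 5 genes of chlorophyll, haem and carotenoids and 4 of xyloglucan higher. The lower count was 1184 with the GAPDH ratio, 1220 with the actin ratio and 1187 with wild-type leaves 1 alone. Leaving out each leaf array in turn gave 2581 to 4014 calls, with 1318 to 2013 higher and 1263 to 2036 lower. The lowest came without lug-3 leaves 3 (2581 calls) and without lug-3 leaves 2 (2600). Of the 180 called genes of the naming rule, 124 stayed called without each array in turn and 88 under every alternative run, and none of the 180 changed sign under any. The cause of these shifts was not tested.

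Replicate numbers were checked for pairing: same-numbered lug-3 and wild-type leaf arrays had correlations of deviations of 0.18, 0.027 and 0.06. No reference value was computed for these, so they do not show whether same-numbered pools were handled together. With the replicate block 3888 probe sets were called, 2004 higher and 1884 lower.

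Genes that did not pass the test changed sign in places. With the GAPDH ratio the changes were DELTA-VPE 0.28, DPE1 0.05, SAG29 0.14, SBE2.2 0.10, WRKY53 -1.05 and sks16 0.02. With the actin ratio they were DELTA-VPE 0.19, DPE1 0.07, SBE2.2 0.10, WRKY53 -0.94 and sks16 0.09. With wild-type leaves 1 alone they were DELTA-VPE 0.36, DPE1 0.03, HTB11 0.16, HTR12 -0.36, SAG29 0.45, SBE2.2 0.16, WRKY53 -1.24 and sks16 0.03. Leaving out each leaf array in turn gave changes of AtS40-3 -0.01 to 0.18, DELTA-VPE -0.34 to 0.16, HTB11 -0.21 to 0.09, HTR12 -0.17 to 0.76, SAG101 -0.53 to 0.07, SAG29 -0.89 to 0.05, SBE2.2 -0.23 to 0.01, WRKY53 -0.31 to 0.76 and sks16 -0.28 to 0.21.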
